A study of Mus musculus with 30 samples.

Results

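The control line of a brown preadipocyte culture was followed from 4 hours after induction of adipogenesis (Vec 4h) to day 2 (Vec D2). Levels of messenger RNA were compared gene by gene between these 2 libraries, taking every gene with an RPKM (reads scaled to transcript length and library total) of at least 1 in either. Of 23109 genes in the tables, 12046 met that rule. The libraries are 2 of the 8 RNA libraries and of the 30 samples of the series; the other 22 samples are chromatin immunoprecipitations and were not analysed here.

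All RNA libraries came from interscapular brown fat precursors of newborn C57BL/6J pups that are homozygous for loxP-flanked (GR-flox/flox) alleles of Nr3c1, the glucocorticoid receptor gene, and were immortalised with SV40T. SV40 T antigen is known to bind p53 and the retinoblastoma protein, so every group shares that alteration. Cells given retrovirus without Cre (Vec) kept the receptor, and in those given Cre it was deleted; whether either line is a clone or a pool is not stated. Cells were seeded 4 days ahead and, once confluent, received insulin (0.02 µM), T3 (1 nM), IBMX (0.5 mM), dexamethasone (2 µg/ml) and indomethacin (0.125 mM), for 4 hours per the labels. What the medium held from hour 4 to day 2 is not stated in the labels, so withdrawal or continued presence of each agent and elapsed time cannot be told apart. The series asks what the receptor adds to adipogenesis; the interval described here follows the cells that have it.

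Adipogenesis runs as a cascade. Agents that raise cAMP (IBMX) and activate the glucocorticoid receptor (dexamethasone) switch on early transcription factors such as C/EBP beta and C/EBP delta, which act before PPAR gamma and C/EBP alpha, the factors that drive the genes of lipid storage. Brown adipocytes add a dense set of mitochondria and, when fully mature, the uncoupling protein Ucp1.

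Each side of the comparison is 1 library, so there is no spread between cultures, no test and no p-value; values are described by size. A difference below is log2(RPKM + 1) in Vec D2 minus that in Vec 4h, and a gene is called higher or lower at D2 when it is at least 1 or at most -1, which is a 2-fold change of RPKM + 1. Folds are ratios of RPKM, each with a 95% Clopper-Pearson interval, exact and conditional on the sum of the gene's reads, which covers counting error only. A gene at 0 reads was set to a floor of 3 reads, and its fold is a lower bound. In bulk RNA, fewer cells of a type and less RNA per cell cannot be told apart. Levels in Vec D0 (before induction) and Vec D7 (day 7) stand beside the values to place them in the course and enter no comparison.

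Promoters of 3 genes that were lower at D2 are shown, 1 from each of 3 lists described below. Each was picked because it carries a short motif of the factor class that its list is named for. Among the members considered, it had the largest difference of those with the motif before the start. Such members numbered 8 in the interferon list and 5 in the cytokine list, and in the cAMP list Areg was the only 1. Not every chromosome was considered. The sequences are the 250 bases before the RefSeq transcription start (build GRCm38.p6), 5′ to 3′ on the gene's strand, with the motif in capitals. Areg, from the cAMP list, lies at chr5:91139349-91139598 on the plus strand, and its cAMP response element begins 61 bases before the start. Bst2, from the interferon list, lies at chr8:71537473-71537722 on the minus strand, where 2 overlapping matches to part of the interferon-stimulated response element begin 130 and 124 bases before the start. Il6, from the cytokine list, lies at chr5:30012864-30013113 on the plus strand, with part of an NF-kB site 44 bases before the start.
Areg: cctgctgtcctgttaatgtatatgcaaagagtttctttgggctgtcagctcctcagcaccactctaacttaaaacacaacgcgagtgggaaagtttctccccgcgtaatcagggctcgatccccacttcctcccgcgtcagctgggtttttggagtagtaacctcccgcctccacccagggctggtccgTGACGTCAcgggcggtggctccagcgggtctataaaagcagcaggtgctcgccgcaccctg
Bst2: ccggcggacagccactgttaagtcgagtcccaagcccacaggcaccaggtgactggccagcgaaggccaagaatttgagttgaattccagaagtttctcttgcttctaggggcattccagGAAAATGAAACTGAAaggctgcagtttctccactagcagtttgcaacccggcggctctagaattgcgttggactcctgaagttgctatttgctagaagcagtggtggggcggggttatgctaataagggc
Il6: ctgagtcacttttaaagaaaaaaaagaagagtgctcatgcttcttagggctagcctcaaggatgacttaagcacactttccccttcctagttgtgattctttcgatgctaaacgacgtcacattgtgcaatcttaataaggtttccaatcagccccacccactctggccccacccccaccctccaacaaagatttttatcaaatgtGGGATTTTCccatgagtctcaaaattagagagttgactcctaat
The letters searched, on both strands of the window from 250 bases before to 50 bases after each start, were TGACGTCA, GAAANNGAA and GGGANTTTC. GAAANNGAA was found in 10 of 18 promoters of the interferon-stimulated list (55.6%), in 8.56% of all 32851 promoters and in 6.89% of the promoters of the genes compared. It was found in 11.4% of the promoters of genes lower at D2 and in 6.53% of those of genes higher at D2. GGGANTTTC was found in 7 of 18 promoters of the cytokine list (38.9%) against 1.11% of all. TGACGTCA was found in 2 of 23 promoters of the cAMP list (8.7%) against 1.79% of all promoters and 3.09% of those of the genes compared, the closest to background of the 3 lists. Genes lower at D2 had it in 2.34% of promoters and genes higher in 2.15%. This element was not particular to the cAMP list. Its share was 20% in the MAPK phosphatase list, 13.6% in the respiratory chain list and 12.9% in the oxidation and TCA list. Other lists had 0%, such as the interferon list. The table held promoters for 16 of 22 genes of the interferon list, 14 of 21 of the cytokine list and 16 of 20 of the cAMP list. Other motifs searched the same way are left out here, apart from those of the cell cycle list below. A gene can have more than 1 promoter in the table, and a match describes letters, not a bound site.

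Vec 4h held 12.3 M reads and Vec D2 28.9 M, the other 6 RNA libraries 7.7 to 26.5 M, and between 11471 and 12176 genes reached an RPKM of 1 in a library. At the median transcript length of 2522 nucleotides, 3 reads correspond to an RPKM of 0.097 in Vec 4h and 0.0412 in Vec D2, so low genes are less certain at 4 hours. Nr3c1 itself stood at 24.3 in Vec D0, 12.9 in Vec 4h, 21.3 in Vec D2 and 32.1 in Vec D7, and at 4.04 and 8.07 in Cre 4h and Cre D2, below Vec at both times. The 2 lines taken before induction differed by at least 1 in 52 of 12007 genes (0.433%), of which 19 (0.158%) were higher and 33 (0.275%) lower in Cre, with an SD of the difference of 0.166; that is the only view of library-to-library spread, and it spans lines.

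Of the 12046 genes compared, 1223 (10.2%) were higher at D2 and 1173 (9.74%) were lower, 19.9% in all. The counts of list members below stand beside these shares, which cover only genes past the RPKM filter. The median difference was 0.19 and the SD 0.92, with quartiles at -0.27 and 0.58, so the typical gene was slightly above its 4-hour level on the deposited scale. Scaling by TMM or by the median of ratios takes 0.151 or 0.213 off every log2 ratio of RPKM. It takes less off the difference used here where RPKM is low. List medians below stand beside 0.19, but they cover all members found, whereas 0.19 covers only genes past the RPKM filter. Members under the filter cannot differ by 1 either way, which can draw a list median toward no change. The split between higher and lower moved with the scaling: 934 higher and 1356 lower with TMM, and 832 and 1458 with the median of ratios. The largest differences lay on both sides: 201 genes were at least 2 higher and 342 at least 2 lower, and 27 and 25 were past 4, a 16-fold change. No reads were seen at 4 hours for 66 of the higher genes, and none at D2 for 18 of the lower ones.

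**Figure D1:**
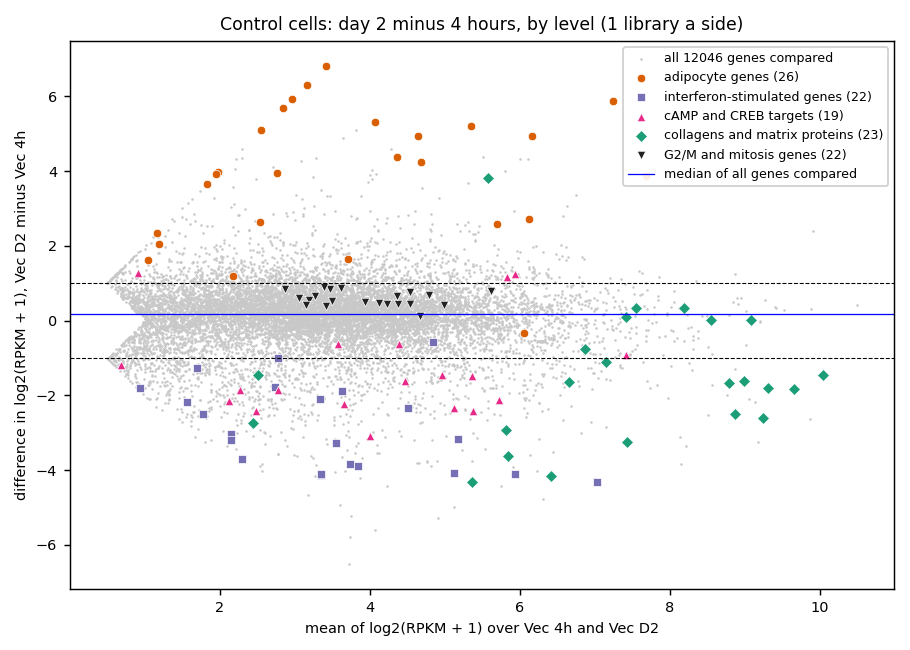
Each point is 1 of the 12046 genes compared, with mean log2(RPKM + 1) of Vec 4h and Vec D2 on the horizontal axis and the difference, D2 minus 4h, on the vertical axis; colours mark 5 of the gene lists. Most adipocyte genes lie along the upper edge, up to 6.82 for G0s2, with Dgat1 below 0, and interferon-stimulated genes lie below 0 throughout, down to -4.31 for Bst2.

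Targets of cAMP and CREB were mostly below their 4-hour level at D2. Of the 20 members, 13 were lower and 3 higher at D2, against 9.74% and 10.2% of all genes compared, with a median of -1.54 over all members; 19 of 20 members passed the RPKM filter. Cited1, a transcriptional coregulator, had an RPKM of 0.175 in Vec D0, 45.9 in Vec 4h, 4.48 in Vec D2 and 0.338 in Vec D7. It was 10.2-fold (8.42 to 12.5) lower at D2 than at 4h, and Vec D0 and Vec D7 lay below both.

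The Nr4a orphan nuclear receptors, classic early targets of cAMP, had the same peak at 4 hours. Nr4a1 stood at 5.86 in Vec D0, 95.4 in Vec 4h, 17.0 in Vec D2 and 17.3 in Vec D7, 5.62-fold (5.25 to 6.01) lower at D2. Nr4a2 was at 3.49 in Vec D0, 11.9 in Vec 4h, 1.41 in Vec D2 and 1.63 in Vec D7. Nr4a3 was at 0.248 in Vec D0, 8.18 in Vec 4h, 1.07 in Vec D2 and 0.769 in Vec D7, and like the others it was lower at each other time than at 4 hours.

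Crem, whose products include a repressor of cAMP-responsive genes, stood at 2.37 in Vec D0, 12.1 in Vec 4h, 2.60 in Vec D2 and 2.58 in Vec D7, so that D2 and D7 were close to D0. Nfil3, a bZIP repressor, was at 109 and 24.5 in Vec 4h and Vec D2 and remained above its D0 level of 11.8. Areg, the growth factor amphiregulin, whose promoter is shown above, had 21 and 2 reads at 4h and D2, an RPKM of 1.43 in Vec 4h and 0.0578 in Vec D2. It was 24.7-fold (6.04 to 217) lower, an interval widened by the few reads, and was at 0 reads in Vec D0 and Vec D7.

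The cAMP-degrading phosphodiesterases did not move as a group. Pde4b and Pde4d were lower, from 67.5 to 23.6 and from 50.6 to 17.8. Pde3b, the insulin-activated enzyme of fat cells, was higher, at 8.12 in Vec D0, 38.6 in Vec 4h, 92.8 in Vec D2 and 52.8 in Vec D7. The remaining higher members were Vegfa (1.18) and the mitochondrial coactivator gene Ppargc1a (1.27). Rgs2, a brake on G protein signalling, was at 234 in Vec 4h and 124 in Vec D2, a difference of -0.92 that lies just inside the threshold, and it had been at 2.69 before induction.

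AP-1 and early growth response factors, the fast transcription factors of growth signals, split. Of 16 members 5 were lower and 2 higher, and the median was 0.06; 15 of 16 members passed the RPKM filter. Maff, a small Maf factor, was the most reduced, with 7.14 in Vec D0, 61.7 in Vec 4h, 2.41 in Vec D2 and 12.1 in Vec D7, 25.7-fold (21.3 to 31.1) lower at D2. Fosl2, Ier3, Fosl1 and Junb made up the other lower members, with differences from -2.38 to -1.10.

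Egr1 and Atf3 were higher. Egr1 stood at 38.6 in Vec D0, 42.5 in Vec 4h, 111 in Vec D2 and 58.5 in Vec D7, 2.62-fold (2.49 to 2.77) higher at D2 than at 4h. Atf3, a factor induced by stress, was at 2.26 in Vec D0, 2.48 in Vec 4h, 13.9 in Vec D2 and 7.34 in Vec D7. Both were near their D0 level at 4 hours and highest at D2. Fos was low at both times, at 3.94 and 4.98, and Myc was at 71.8 and 92.9 from 13.7 in Vec D0, a difference of 0.37 that did not reach the threshold.

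Among MAPK phosphatases and feedback inhibitors, 3 of 16 were lower and 2 higher, with a median of -0.18, and 5 were lower with the median of ratios; 13 of 16 members passed the RPKM filter. Dusp1, the phosphatase that glucocorticoids induce, was at 11.3 in Vec D0, 70.5 in Vec 4h, 15.6 in Vec D2 and 15.1 in Vec D7. Errfi1, an inhibitor of the EGF receptor, was at 36.9 in Vec D0, 392 in Vec 4h, 168 in Vec D2 and 62.3 in Vec D7. Both had been several times above D0 at 4 hours; by D2 Dusp1 was near D0 and Errfi1 was not. Dusp4 and the Sprouty gene Spry4 were higher, with differences of 2.02 and 1.33.

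Cytokines, chemokines and NF-kB targets were lower more often than higher. Of 21 members, 9 were lower and 1 (Ptges) was higher, with a median of -0.86 over all members; 16 of 21 members passed the RPKM filter. Il6, which encodes interleukin 6, had 82 and 6 reads at 4h and D2, an RPKM of 0.509 in Vec D0, 6.15 in Vec 4h, 0.191 in Vec D2 and 0.849 in Vec D7, and was 32.2-fold (14.2 to 90.2) lower at D2. Vcam1, a leukocyte adhesion molecule, stood at 41.7 in Vec D0, 99.6 in Vec 4h, 6.34 in Vec D2 and 17.8 in Vec D7 and was 15.7-fold (14.4 to 17.1) lower.

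The monocyte chemokines Ccl2 and Ccl7 differed from Il6 in their start. Ccl2 was at 31.6 in Vec D0, 20.7 in Vec 4h, 2.79 in Vec D2 and 32.9 in Vec D7. Ccl7 was at 33.7 in Vec D0, 32.6 in Vec 4h, 4.12 in Vec D2 and 19.5 in Vec D7. Neither was above D0 at 4 hours, and D2 was the lowest of the 4 times for both. Cxcl12, the most abundant chemokine of the list at both times, went from 514 to 123 and was at 311 in Vec D7. Csf1, Cxcl1, Birc3 and Lif were lower too, with differences of -1.57, -1.97, -1.19 and -1.06, while Nfkbia, the inhibitor of NF-kB, stayed inside the threshold at -0.73.

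Glucocorticoid-induced genes did not follow a common course from 4 hours to D2. Of 22 members, 9 were lower and 4 higher, with a median of -0.74, and all 22 passed the filter. Their summed RPKM was 474 in Vec D0, 5617 in Vec 4h, 1588 in Vec D2 and 587 in Vec D7, and the metallothioneins made up most of the 4-hour sum. Mt2 stood at 45.2 in Vec D0, 1768 in Vec 4h, 186 in Vec D2 and 34.6 in Vec D7, 9.51-fold (9.14 to 9.90) lower at D2. Mt1 was at 193 in Vec D0, 2316 in Vec 4h, 374 in Vec D2 and 147 in Vec D7. These 2 metal-binding proteins are close copies that may share reads.

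Fkbp5, a receptor co-chaperone, was at 20.2 in Vec D0, 242 in Vec 4h, 127 in Vec D2 and 15.0 in Vec D7. Tsc22d3, which encodes the anti-inflammatory protein GILZ, was at 14.0 in Vec D0, 153 in Vec 4h, 103 in Vec D2 and 16.5 in Vec D7. Neither was 2-fold lower at D2 (differences -0.92 and -0.57), and both were near D0 again at D7. Sgk1, a kinase of ion transport, was at 14.1 in Vec D0, 56.1 in Vec 4h, 9.48 in Vec D2 and 7.14 in Vec D7 , below D0 from D2 on.

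The 4 higher members were each above D0 at 4 hours already. Zbtb16, a zinc finger transcription factor, was at 0.0666 in Vec D0, 6.52 in Vec 4h, 33.8 in Vec D2 and 6.91 in Vec D7, 5.18-fold (4.68 to 5.74) higher at D2 than at 4h. Lcn2, the lipocalin of acute inflammation, was at 0.150 in Vec D0, 2.77 in Vec 4h, 14.6 in Vec D2 and 1.54 in Vec D7. Angptl4, an inhibitor of lipoprotein lipase, was at 2.44 in Vec D0, 12.3 in Vec 4h, 57.7 in Vec D2 and 38.6 in Vec D7. Sult1a1, a sulfotransferase, went from 0.476 to 4.15 on 8 and 164 reads. Zbtb16, Lcn2 and Angptl4 were lower at D7 than at D2, and Lcn2 was then below its 4-hour level.

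Among 18 clock genes 3 were higher and 0 lower, against 10.2% and 9.74% of all genes compared, with a median of 0.34. With a pseudocount of 5, 0 were higher. The RPKM filter was passed by 16 of 18 members. The higher ones were Per3 (1.63), Rora (1.32) and Nr1d1 (1.26). Per3 stood at 6.57 in Vec D0, 2.45 in Vec 4h, 9.71 in Vec D2 and 13.4 in Vec D7, with 4 hours as the lowest of the 4 times. The clock hour of each harvest is not stated in the labels.

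**Figure D2:**
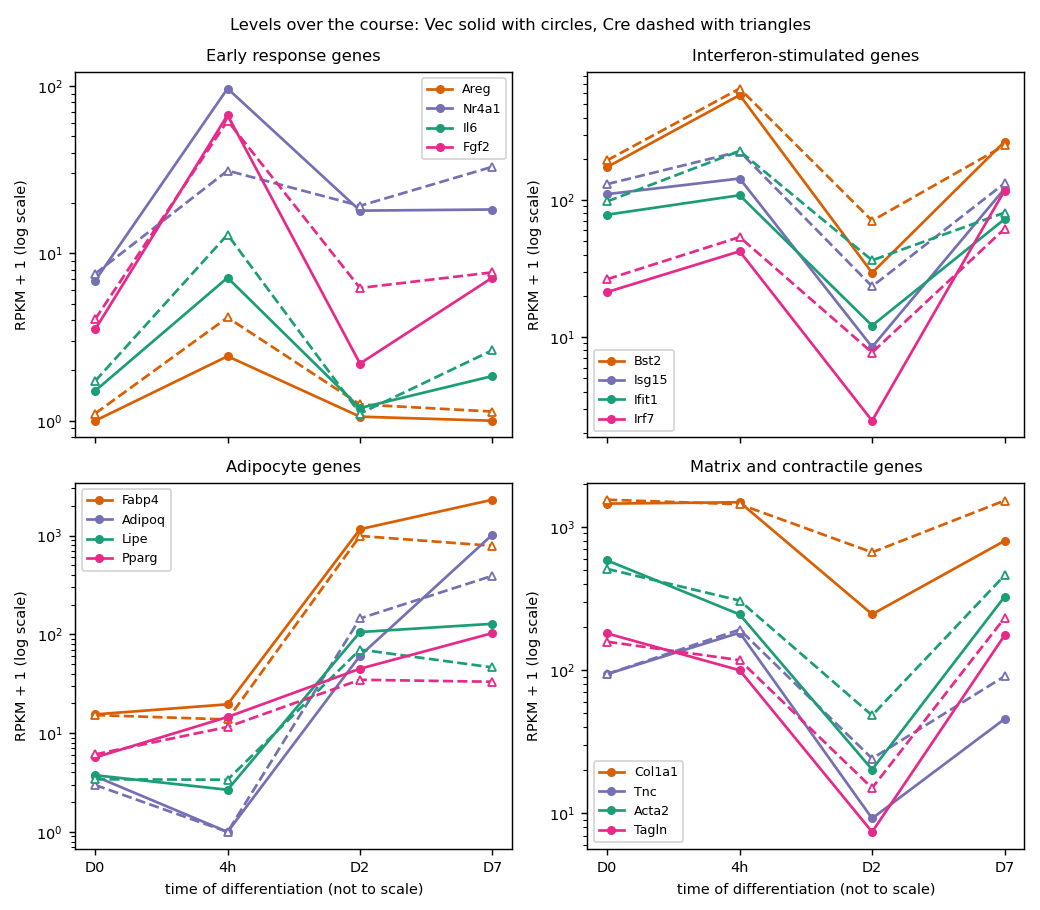
RPKM + 1 on a log axis over the 4 times (D0 to D7) for 16 genes, Vec as solid and Cre as dashed lines, 1 library per point, in panels of early response, interferon, adipocyte and matrix or contractile genes. In Vec, Areg, Nr4a1, Il6 and Fgf2 are lower at D2 than at 4h, Bst2, Isg15, Ifit1 and Irf7 have their lowest point at D2, and Fabp4 climbs from 18.6 to 1159 between 4h and D2.

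Early adipogenic regulators went both ways. Of 20 early regulators, 5 were higher and 3 lower, against 10.2% and 9.74% of all genes compared, with a median of 0.15. With a pseudocount of 5, 3 were higher. The RPKM filter was passed by 17 of 20 members. Cebpd, the gene of C/EBP delta, was at 12.5 in Vec D0, 144 in Vec 4h, 41.7 in Vec D2 and 11.9 in Vec D7, 3.45-fold (3.29 to 3.63) lower at D2. Cebpb, the gene of C/EBP beta, was at 28.4 in Vec D0, 219.9 in Vec 4h, 115 in Vec D2 and 55.7 in Vec D7, and its difference of -0.93 lay just inside the threshold. Fosl2 and Klf4 were lower, with differences of -2.38 and -1.31.

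The higher early regulators were Stat5a, Klf15, Ebf1, Zfp423 and Stat5b. Stat5a, a transducer of growth hormone and prolactin signals, stood at 4.91 in Vec D0, 2.14 in Vec 4h, 10.4 in Vec D2 and 21.6 in Vec D7. Ebf1, a preadipocyte factor that acts with PPAR gamma, was at 12.9 in Vec D0, 6.14 in Vec 4h, 22.5 in Vec D2 and 36.0 in Vec D7. Klf15, a metabolic zinc finger factor, was at 1.595 in Vec D0, 5.94 in Vec 4h, 22.8 in Vec D2 and 14.7 in Vec D7. Stat5a and Ebf1 were lower at 4 hours than at D0 and highest at D7; Klf15 was highest at D2.

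Late adipogenic and lipogenic regulators were higher in 11 of 18 members and lower in 0, with a median of 1.30; 14 of 18 members passed the RPKM filter, 4 of them through 1 library alone. Cebpa, the gene of C/EBP alpha, was at 5.50 in Vec D0, 9.05 in Vec 4h, 207 in Vec D2 and 214 in Vec D7, 22.8-fold (20.3 to 25.7) higher at D2 than at 4h, with near-equal levels at D2 and D7. Pparg stood at 4.68 in Vec D0, 13.6 in Vec 4h, 43.9 in Vec D2 and 102 in Vec D7, 3.23-fold (2.87 to 3.65) higher at D2, and was highest at D7.

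Partners of PPAR gamma and lipogenic factors were higher as well. Rxra, its dimerisation partner, was at 23.0 in Vec D0, 12.98 in Vec 4h, 67.2 in Vec D2 and 39.9 in Vec D7. Srebf1, which drives fatty acid synthesis genes, was at 23.6 in Vec D0, 9.49 in Vec 4h, 74.1 in Vec D2 and 153 in Vec D7. Nr1h3, the oxysterol receptor LXR alpha, was at 0.590 in Vec D0, 0.272 in Vec 4h, 7.02 in Vec D2 and 19.9 in Vec D7 on 6 and 365 reads at 4h and D2. All 3 were lower at 4 hours than at D0. Ppargc1b, a coactivator of mitochondrial genes, was at 0.373 in Vec D0, 0.312 in Vec 4h, 14.6 in Vec D2 and 17.9 in Vec D7, 46.7-fold (27.8 to 85.7) higher, while its relative Ppargc1a reached only 1.93. Mlxipl, the glucose-sensing factor ChREBP, had 0 reads at 4h and an RPKM of 1.43 at D2, and 35.3 at D7. Rxrg, Esrrg, Prdm16 and Ppara were under an RPKM of 1 at both times.

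The adipocyte list had the highest median of all lists. Of 30 adipocyte genes 25 were higher at D2 and 0 lower, with a median of 3.89 over all members; 26 of 30 members passed the RPKM filter, 12 of them through 1 library alone, and 12 members had 0 reads at 4h. Their summed RPKM was 171 in Vec D0, 233 in Vec 4h, 3844 in Vec D2 and 8701 in Vec D7. Fabp4, the fatty acid binding protein of fat cells, was at 14.5 in Vec D0, 18.6 in Vec 4h, 1159 in Vec D2 and 2304 in Vec D7, 62.4-fold (53.01 to 73.9) higher at D2. It was the most abundant member at D2.

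Genes of lipid uptake and activation were among the members with the most RNA. Lpl, the lipase that frees fatty acids from lipoproteins, was at 20.2 in Vec D0, 52.96 in Vec 4h, 784 in Vec D2 and 708 in Vec D7, 14.8-fold (14.2 to 15.4) higher. Cd36, a fatty acid carrier, had 0 reads at 4h and stood at 50.7 at D2, at least 714-fold higher. Acsl1, which activates fatty acids with coenzyme A, was at 5.90 in Vec D0, 5.66 in Vec 4h, 246 in Vec D2 and 139 in Vec D7. Fabp5, a relative of Fabp4, was at 10.7 in Vec D0, 11.9 in Vec 4h, 394 in Vec D2 and 53.7 in Vec D7. Acsl1 and Fabp5 were higher at D2 than at D7, whereas Cd36 reached 99.0 at D7.

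Genes of triglyceride synthesis were unequal. Dgat2 was at 2.87 in Vec D0, 3.48 in Vec 4h, 138 in Vec D2 and 82.2 in Vec D7, 39.6-fold (32.4 to 48.9) higher at D2. Agpat2, an acyltransferase of an earlier step, was at 10.5 in Vec D0, 4.87 in Vec 4h, 111 in Vec D2 and 105 in Vec D7, 22.7-fold (17.2 to 30.7) higher. Dgat1, which catalyses the same last step as Dgat2, was at 10.3 in Vec D0, 73.3 in Vec 4h, 58.0 in Vec D2 and 91.2 in Vec D7: it was the 1 member past the filter that was not called, at -0.33, and had already been above D0 at 4 hours. Gpd1, which makes glycerol 3-phosphate, was seen with 0 reads at 4h and an RPKM of 11.6 at D2, at least 132-fold higher.

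Lipid droplet and lipolysis genes were among the largest gains of all. Cidec, which fuses lipid droplets, was at 0 reads at 4h and at 78.7 at D2, at least 548-fold higher. Plin1, the droplet coat protein, was at 0 and 33.0 (at least 259-fold), and G0s2, an inhibitor of adipose triglyceride lipase, at 0 and 112 (at least 387-fold). The lipases Pnpla2, Lipe and Mgll, which act in turn on a triglyceride and its products, were all higher. Lipe stood at 2.75 in Vec D0, 1.67 in Vec 4h, 104 in Vec D2 and 127 in Vec D7 and was 62.5-fold (49.1 to 80.9) higher. Pnpla2 was 26.3-fold (21.9 to 31.8) higher and Mgll 34.8-fold (25.1 to 49.8) higher.

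Secreted factors and markers of later fat cells were far lower at D2 than at D7. Adipoq, the gene of adiponectin, was at 0 reads at 4h, 59.7 at D2 and 1021 at D7, and was at least 301-fold higher at D2. Cfd, the complement factor adipsin, was at 0 at 4h, 4.05 at D2 and 2092 at D7. Slc2a4, the insulin-responsive glucose transporter, was at 2.64 at D2 and 34.2 at D7. Lep, Pck1, Plin5 and Aqp7 were below an RPKM of 1 at both times. Before induction Adipoq and Cfd were at 2.66 and 3.83, above their 4-hour level of 0 reads.

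Thermogenic brown fat genes were mostly low at both times. Of 18 members 5 were higher and 1 lower, with a median of 0.15; only 10 passed the filter, 6 of them through 1 library alone. With a pseudocount of 5, 2 were higher and 0 lower. Ucp1 was at 0 in Vec D0, 0.0496 in Vec 4h, 0.105 in Vec D2 and 0.882 in Vec D7. Cidea was listed at 0.350 at 4h and 0 at D2, and Cox7a1 and Cox8b at 0.473 and 0.286 at D2 against 41.2 and 49.7 at D7. The higher members were Slc36a2, Elovl3, Cited4, Kcnk3 and Ppargc1a. Slc36a2, an amino acid carrier, was at 0 reads at 4h and 8.61 at D2, at least 85.5-fold higher. Elovl3, which elongates fatty acids, was at 0 in Vec D0, 0.0868 in Vec 4h, 6.398 in Vec D2 and 0.245 in Vec D7, with D2 as the 1 time above an RPKM of 1.

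Mitochondrial genes were higher at D2 across fuel oxidation. Of 30 genes of fatty acid oxidation and the TCA cycle, 23 were higher and 1 lower, with a median of 1.28; 29 of 30 members passed the RPKM filter, and 0 of them through 1 library alone. Pcx, pyruvate carboxylase, which refills the cycle, was at 13.7 in Vec D0, 12.96 in Vec 4h, 221 in Vec D2 and 273 in Vec D7, 17.0-fold (15.8 to 18.4) higher. Idh3a, a subunit of isocitrate dehydrogenase, was at 21.7 in Vec D0, 20.9 in Vec 4h, 166 in Vec D2 and 72.7 in Vec D7, 7.93-fold (7.31 to 8.61) higher, ahead of its partner subunits Idh3b and Idh3g at 1.21 and 1.52. The medium-chain dehydrogenase Acadm stood at 12.96 in Vec D0, 6.28 in Vec 4h, 47.5 in Vec D2 and 70.0 in Vec D7.

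Cpt1a, which admits long-chain fatty acids to mitochondria, was the exception: it was at 23.3 in Vec D0, 34.1 in Vec 4h, 10.4 in Vec D2 and 12.7 in Vec D7, 3.28-fold (3.05 to 3.53) lower at D2. Mdh2, Dlst, Ogdh, Hadha and Hadhb had positive differences under 1, from 0.68 to 0.99. Hadhb is listed at only 2.01 and 4.39, far below its partner Hadha at 24.0 and 48.6; the treatment of multiply matching reads is unknown.

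Respiratory chain subunits had smaller differences. Of 30 nuclear-encoded members, all past the filter, 15 were higher and 0 lower, with a median of 0.98. The count was 10 with TMM or a pseudocount of 5 and 8 with the median of ratios. Uqcrc2, a core protein of complex III, was at 23.0 in Vec D0, 14.8 in Vec 4h, 56.1 in Vec D2 and 51.8 in Vec D7, 3.80-fold (3.39 to 4.26) higher. Cyc1, cytochrome c1, was at 52.6 in Vec D0, 55.3 in Vec 4h, 171 in Vec D2 and 155 in Vec D7. The small subunits Cox6c and Ndufa1 were at 93.6 and 93.3 and at 35.2 and 40.7 in Vec 4h and Vec D2, near no change, and the difference of Ndufa1 turned negative with the median of ratios.

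Fatty acid and cholesterol synthesis, in contrast to oxidation, held no common direction. Of 16 fatty acid synthesis genes 4 were higher and 3 lower, with a median of 0.21, and 2 were higher with a pseudocount of 5; 15 of 16 members passed the RPKM filter. Gpam, which begins glycerolipid synthesis, was at 11.98 in Vec D0, 13.7 in Vec 4h, 56.9 in Vec D2 and 114 in Vec D7. The desaturases and elongase of polyunsaturated fatty acids were lower: Elovl5 was at 46.3 in Vec D0, 138 in Vec 4h, 32.2 in Vec D2 and 46.5 in Vec D7. Fads1 was at 78.3 and 26.8 and Fads2 at 49.0 and 20.7 in Vec 4h and Vec D2. Scd1, already at 646 at 4h from 92.6 at D0, was at 412 at D2 and 2137 at D7, and Fasn was at 75.1 and 94.3.

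Of 23 cholesterol genes found, 2 were higher and 3 lower, with a median of -0.10; 1 was higher with the median of ratios, and 1 each way with a pseudocount of 5. Pmvk, phosphomevalonate kinase, was at 19.7 in Vec D0, 116 in Vec 4h, 13.6 in Vec D2 and 28.8 in Vec D7, 8.53-fold (7.70 to 9.47) lower at D2. In the receptor-deleted line it stood at 15.4 in Cre 4h and 14.0 in Cre D2, so the 4-hour level differed between the lines and the D2 level hardly did. Lss, lanosterol synthase, and Dhcr7 were higher, with differences of 1.66 and 1.18. Glycolysis and hypoxia genes were seldom called, with 2 higher and 1 lower of 22 and a median of -0.19. Adm, the vasoactive peptide adrenomedullin, was lower, with a difference of -1.63, and Pdk1 (1.10) and Vegfa (1.18) were higher. With TMM 1 was higher and 2 lower, and with the median of ratios 0 and 2, so that neither Pdk1 nor Vegfa passed. Gapdh, which has many processed pseudogenes, is listed at only 1.06 and 0.619 and is not informative here.

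**Figure D3:**
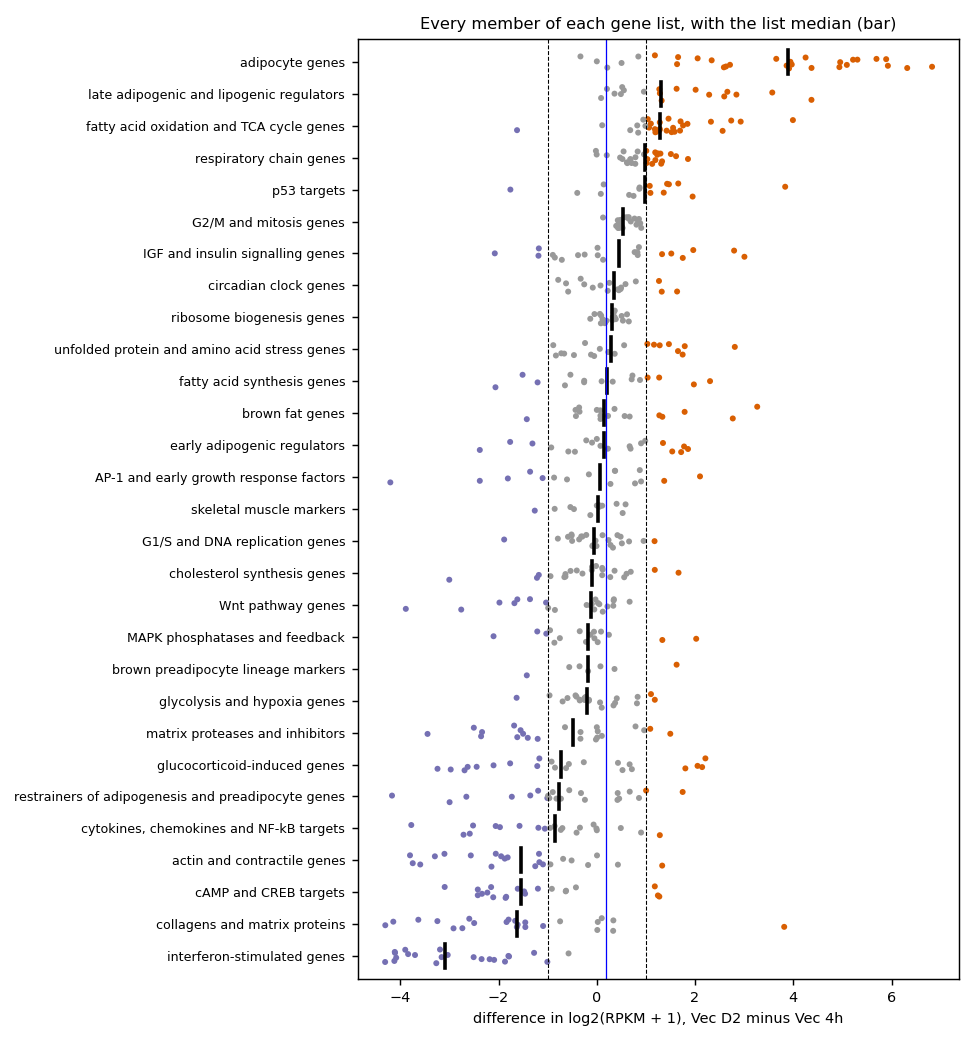
Difference in log2(RPKM + 1), D2 minus 4h, for every member found of each gene list with at least 5 members past the RPKM filter. Bars are list medians over all members found, including those under the filter. The blue line is the median of all genes compared (0.19), which are all past the filter, and dashed lines mark 1 and -1. Orange points are at or above 1 and purple points at or below -1; 25 adipocyte genes are orange and 21 interferon-stimulated genes are purple.

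Few cell cycle genes passed the size rule. Of 24 genes of G1/S and DNA replication 1 (Ccnd2) was higher and 1 (Ccnd1) lower, with a median of -0.05; with the median of ratios 0 were higher and 2 lower. Ccnd1, the gene of cyclin D1, was at 36.0 in Vec D0, 11.1 in Vec 4h, 2.28 in Vec D2 and 12.2 in Vec D7, 4.88-fold (4.19 to 5.70) lower at D2. Ccnd2, the gene of cyclin D2, was at 96.2 in Vec D0, 40.5 in Vec 4h, 92.7 in Vec D2 and 73.3 in Vec D7. The 2 D-type cyclins went in opposite directions, with Ccnd2 near its D0 level at D2.

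No member of the 22 G2/M genes reached the threshold, yet 21 lay above the median of all genes, and the list median was 0.54. Added up, their RPKM was 602 in Vec D0, 303 in Vec 4h, 462 in Vec D2 and 374 in Vec D7. Mki67, a marker of cycling cells, was at 48.4 in Vec D0, 16.8 in Vec 4h, 29.4 in Vec D2 and 31.2 in Vec D7. Top2a, a DNA topoisomerase of dividing cells, was at 58.1 in Vec D0, 36.1 in Vec 4h, 63.9 in Vec D2 and 38.7 in Vec D7. Cdk1, with the smallest difference (0.13), turned negative with both other scalings. In the same promoter window as above, TTTGAA, letters of a cell cycle element, was found in 13 of 18 promoters of the list (72.2%) against 17.9% of all. CCAAT was found in 16 of 18 (88.9%) against 37.4%. It was not particular to this list: it was in 83.3% of promoters of the cholesterol list and 75% of the clock list. Some other lists had fewer than all promoters, such as the cytokine list with 22.2%.

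Targets of p53 were higher in 8 of 16 members and lower in 1, with a median of 0.97; all passed the filter. The count was 6 with either other scaling and 4 with a pseudocount of 5. Gdf15, a stress hormone, was at 15.7 in Vec D0, 1.505 in Vec 4h, 34.7 in Vec D2 and 7.54 in Vec D7, 23.1-fold (14.9 to 37.9) higher at D2. Bbc3, the pro-apoptotic protein PUMA, was at 9.20 in Vec D0, 0.784 in Vec 4h, 5.89 in Vec D2 and 11.5 in Vec D7. In these genes 4 hours was the lowest time. Ccng1, the gene of cyclin G1, was at 135 in Vec D0, 50.8 in Vec 4h, 162 in Vec D2 and 77.1 in Vec D7. Mdm2, the ubiquitin ligase of p53, was at 51.7 in Vec D0, 29.9 in Vec 4h, 78.4 in Vec D2 and 40.4 in Vec D7. They too were lowest at 4 hours, and D2 was above D0 for Gdf15, Ccng1 and Mdm2. Pmaip1, another pro-apoptotic gene, was lower, at 8.88 and 1.92, and Cdkn1a, the cell cycle inhibitor p21, was at 111 and 187, inside the threshold.

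Stress genes called higher lay on the amino acid and ATF4 side, and no member was called lower on the deposited scale. Of 20 members 8 were higher and 0 lower, with a median of 0.30 (1 lower with TMM and 2 with the median of ratios), and the higher ones were the amino acid and ATF4 targets Trib3, Ddit3, Chac1, Psat1, Sesn2, Phgdh and Asns, with Atf5. Trib3 was at 27.2 in Vec D0, 6.88 in Vec 4h, 54.2 in Vec D2 and 18.9 in Vec D7. Ddit3, the gene of CHOP, was at 77.1 in Vec D0, 47.2 in Vec 4h, 166 in Vec D2 and 70.7 in Vec D7. Atf4 itself was at 194 and 250.1. The chaperones of the endoplasmic reticulum were not higher: Hspa5 was at 219.9 in Vec D0, 514 in Vec 4h, 278 in Vec D2 and 222 in Vec D7. Hsp90b1, Manf, Creld2 and Sdf2l1 had differences from -0.83 to -0.47. The differences of Pdia4, Herpud1, Hyou1, Xbp1 and Dnajb9 ran from -0.24 to 0.23. Slc7a11 had a difference of 0.56 and was not called. Ribosome biogenesis genes had 0 higher and 0 lower of 19, with a median of 0.32, and their summed RPKM was 347 in Vec D0, 612 in Vec 4h, 735 in Vec D2 and 287 in Vec D7.

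Matrix genes were lower. Of 23 collagens and matrix proteins found, all past the filter, 16 were lower and 1 higher, with a median of -1.63. Summed over the list, RPKM was 9310.4 in Vec D0, 12190.2 in Vec 4h, 4543 in Vec D2 and 7815 in Vec D7. Tnc, the adhesion-modulating protein tenascin C, was at 92.7 in Vec D0, 181 in Vec 4h, 8.22 in Vec D2 and 44.5 in Vec D7, 22.1-fold (21.0 to 23.2) lower at D2. Thbs1, thrombospondin 1, was at 180.4 in Vec D0, 359 in Vec 4h, 19.4 in Vec D2 and 287 in Vec D7. Both had their lowest level of the 4 times at D2.

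The fibrillar collagens Col1a1 and Col1a2 were alike in size of difference. Col1a1 was at 1449 in Vec D0, 1481 in Vec 4h, 244 in Vec D2 and 796 in Vec D7, 6.07-fold (5.99 to 6.14) lower at D2. Col1a2 was at 955 in Vec D0, 1109 in Vec 4h, 196 in Vec D2 and 506 in Vec D7, 5.67-fold (5.59 to 5.75) lower. Col3a1 was 3.06-fold (3.03 to 3.10) lower and Lox, which crosslinks collagen, 9.64-fold (9.36 to 9.92) lower. The basement membrane collagens did not share this: Col4a1 and Col4a2 had differences of 0.34 and 0.33. The 3 collagen VI genes were within 0.10 of no change and turned negative with both other scalings. Col15a1, a collagen of the basement membrane zone, was the 1 higher member, at 8.22 in Vec D0, 11.7 in Vec 4h, 178 in Vec D2 and 84.9 in Vec D7, 15.2-fold (14.1 to 16.3) higher.

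Of 22 matrix proteases and inhibitors 10 were lower and 2 higher, with a median of -0.49 over all members. The RPKM filter was passed by 17 of 22, and the 10 lower members are among these 17. Inhibitors and proteases were both among the lower: Timp3, which inhibits metalloproteases, was at 138 in Vec D0, 152 in Vec 4h, 13.03 in Vec D2 and 93.1 in Vec D7. The membrane protease Mmp14 was at 248 in Vec D0, 191 in Vec 4h, 61.4 in Vec D2 and 80.4 in Vec D7. Adamts12 and Mmp15 were higher, with differences of 1.495 and 1.09; 1 member was higher with either other scaling. Mmp2, the most abundant protease at D2, was at 208 and 165, inside the threshold.

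Contractile genes were lower in 15 of 22 members found and higher in 1, with a median of -1.53. The list sum of RPKM was 4439 in Vec D0, 2448 in Vec 4h, 1125 in Vec D2 and 2869 in Vec D7, so they had already been below D0 at 4 hours. Acta2, smooth muscle actin, was at 581 in Vec D0, 243 in Vec 4h, 19.2 in Vec D2 and 323 in Vec D7, 12.7-fold (11.8 to 13.6) lower at D2. Tagln, which binds actin, was at 179 in Vec D0, 98.6 in Vec 4h, 6.42 in Vec D2 and 173 in Vec D7. Myl9, a myosin light chain, was at 165 in Vec D0, 91.5 in Vec 4h, 5.63 in Vec D2 and 113 in Vec D7. These 3 were lowest at D2 and higher again at D7. Ccn2, a target of YAP and TGF-beta, was at 39.5 in Vec D0, 18.0 in Vec 4h, 0.938 in Vec D2 and 77.5 in Vec D7. Actb, cytoplasmic beta actin, stood at 1383 in Vec D0, 585 in Vec 4h, 587 in Vec D2 and 932 in Vec D7 and did not differ between 4h and D2 on the deposited scale, turning negative with both other scalings. Srf, the transcription factor of many of these genes, was higher, at 15.8 in Vec D0, 5.66 in Vec 4h, 15.7 in Vec D2 and 19.5 in Vec D7.

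Preadipocyte genes and restrainers of adipogenesis leaned lower: 7 of 22 were lower and 2 higher, with a median of -0.78; 21 of 22 members passed the RPKM filter. The lower count was 10 with TMM, 11 with the median of ratios and 4 with a pseudocount of 5. Ly6a, the progenitor surface marker Sca-1, was at 183 in Vec D0, 362 in Vec 4h, 19.2 in Vec D2 and 187 in Vec D7, 18.9-fold (17.1 to 20.8) lower at D2. Id3, a helix-loop-helix inhibitor, was at 56.6 in Vec D0, 316 in Vec 4h, 38.7 in Vec D2 and 94.0 in Vec D7. Thy1, a surface marker of fibroblasts, was at 134 in Vec D0, 118 in Vec 4h, 17.8 in Vec D2 and 60.0 in Vec D7. All 3 were lowest at D2. Dlk1, the preadipocyte factor Pref-1, was at 53.2 in Vec D0, 136 in Vec 4h, 69.3 in Vec D2 and 51.1 in Vec D7, just inside the threshold at -0.97. Tcf7l1, a repressor of Wnt target genes, was higher, with a difference of 1.75.

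In the Wnt pathway 7 of 22 genes were lower and 0 higher (4 lower with a pseudocount of 5). The median over all members was -0.11, but only 13 passed the filter, and the 7 lower genes are among these 13. Lower members were ligands (Wnt11, Wnt2), a receptor (Fzd1) and secreted antagonists (Sfrp4, Sfrp2, Dkk3, Dkk2), so activators and inhibitors of the pathway were both among them. Sfrp4 was at 16.8 in Vec D0, 21.4 in Vec 4h, 0.512 in Vec D2 and 25.7 in Vec D7, 41.7-fold (28.1 to 64.6) lower at D2. Fzd1 was at 46.7 in Vec D0, 183 in Vec 4h, 45.5 in Vec D2 and 40.7 in Vec D7. The Wnt target Axin2 was under an RPKM of 1 at both times.

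IGF and insulin genes had no common direction. Of 22 members 6 were higher and 3 lower, with a median of 0.45; 5 were lower with TMM or the median of ratios and 1 with a pseudocount of 5. Igf1, a ligand, was at 5.07 in Vec D0, 4.17 in Vec 4h, 16.4 in Vec D2 and 42.0 in Vec D7. Igf2, the other ligand, was at 9.36 in Vec D0, 28.6 in Vec 4h, 12.003 in Vec D2 and 6.77 in Vec D7, so Igf1 was higher and Igf2 lower at D2. Igf1r, the receptor, was lower, with a difference of -1.18, and Insr, the insulin receptor, stood at 11.4 and 20.9. Of the binding proteins, Igfbp4 was at 22.4 in Vec D0, 35.1 in Vec 4h, 249.6 in Vec D2 and 89.2 in Vec D7. Igfbp3 was at 9.89 in Vec D0, 48.8 in Vec 4h, 193 in Vec D2 and 56.9 in Vec D7. Igfbp2 was at 0.0962 in Vec D0, 2.09 in Vec 4h, 23.8 in Vec D2 and 3.28 in Vec D7. These 3 were higher at D2 than at any other time in Vec, whereas Igfbp6 was lower, at 52.2 and 11.6. Akt2, the isoform tied to insulin action in fat, was higher, with a difference of 1.52, and Akt1 was at 68.2 and 69.1.

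Interferon-stimulated genes were almost all called, in 1 direction. Of 22 members, all past the filter, 21 were lower and 0 higher, with a median of -3.10; 6 passed through 1 library alone. Their summed RPKM was 813 in Vec D0, 1514 in Vec 4h, 122 in Vec D2 and 1651 in Vec D7. D2 was thus a trough, and the sum was back above its 4-hour value at D7.

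Bst2, the antiviral membrane protein tetherin, whose promoter is shown above, was at 173 in Vec D0, 583 in Vec 4h, 28.4 in Vec D2 and 266 in Vec D7, 20.5-fold (18.9 to 22.3) lower at D2. Isg15, a ubiquitin-like modifier, was at 109 in Vec D0, 143 in Vec 4h, 7.47 in Vec D2 and 119.9 in Vec D7. Ifit3, which binds viral RNA, was at 36.7 in Vec D0, 41.4 in Vec 4h, 1.44 in Vec D2 and 62.4 in Vec D7. The transcription factors of the response were lower as well. Irf7 was at 20.3 in Vec D0, 41.3 in Vec 4h, 1.45 in Vec D2 and 116 in Vec D7. Stat2 was at 46.8 in Vec D0, 50.3 in Vec 4h, 9.09 in Vec D2 and 44.2 in Vec D7. Irf9, its partner, was at 22.6 and 5.46 in Vec 4h and Vec D2. All of these were lowest at D2. The RNA sensors Ddx58 (RIG-I) and Ifih1 (MDA5) were lower, with differences of -2.09 and -1.01. Mx1 had 85 and 2 reads at 4h and D2, and was 100.1-fold (26.9 to 839.6) lower, an interval that is wide for the same reason as that of Areg. Members of the Ifit, Oas and Mx families resemble each other and may share reads.

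By size alone, the 12 genes with the most negative differences, named by rule, were mostly outside the lists. Fgl2, a fibrinogen-like protein with prothrombinase activity, was at 2.87 in Vec D0, 124 in Vec 4h, 0.386 in Vec D2 and 1.94 in Vec D7, 322-fold (238 to 448) lower at D2. Il1rl1, the interleukin 33 receptor, was at 34.7 in Vec D0, 98.7 in Vec 4h, 0.796 in Vec D2 and 6.37 in Vec D7. Ramp3, a partner of the calcitonin-like receptors, was at 1.05 in Vec D0, 80.9 in Vec 4h, 1.19 in Vec D2 and 0.378 in Vec D7. These 3 had been above D0 at 4 hours and lay near or below it at D2.

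Fgf2, basic fibroblast growth factor, was at 2.51 in Vec D0, 66.0 in Vec 4h, 1.20 in Vec D2 and 6.16 in Vec D7, 55.1-fold (36.7 to 86.8) lower. Thbd, thrombomodulin, was at 20.5 in Vec D0, 247 in Vec 4h, 10.6 in Vec D2 and 12.1 in Vec D7. Apod, the lipocalin apolipoprotein D, was at 13.3 in Vec D0, 186 in Vec 4h, 3.85 in Vec D2 and 57.6 in Vec D7. All 3 were highest at 4 hours, as Fgl2 was.

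A different course was seen in Ccn3, Crabp1 and S100a4, which were abundant before induction. Ccn3, a matricellular protein, was at 143 in Vec D0, 115 in Vec 4h, 1.41 in Vec D2 and 112 in Vec D7, 82.0-fold (66.9 to 101) lower at D2. Crabp1, which binds retinoic acid, was at 203 in Vec D0, 195 in Vec 4h, 5.19 in Vec D2 and 17.7 in Vec D7. S100a4, a calcium-binding protein of fibroblasts, was at 636 in Vec D0, 415 in Vec 4h, 14.2 in Vec D2 and 176 in Vec D7. Gpnmb (-4.41), Iigp1 (-4.65) and Bst2 completed the 12; Iigp1 is an interferon-inducible GTPase.

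Of the 12 genes with the most positive differences, 10 belong to the adipocyte list. The other 2 were Arxes2, an adipocyte-related X-linked gene, at 3.32 in Vec D0, 1.64 in Vec 4h, 101 in Vec D2 and 32.6 in Vec D7, and Aldh1a7. Aldh1a7, an aldehyde dehydrogenase, was at 1.45 in Vec D0, 1.39 in Vec 4h, 81.5 in Vec D2 and 16.3 in Vec D7. Arxes2 was 61.7-fold (43.4 to 90.9) and Aldh1a7 58.8-fold (42.2 to 84.5) higher at D2, and both were lower again at D7. Each has a close paralog (Arxes1, Aldh1a1) with which reads may be shared.

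**Figure D4:**
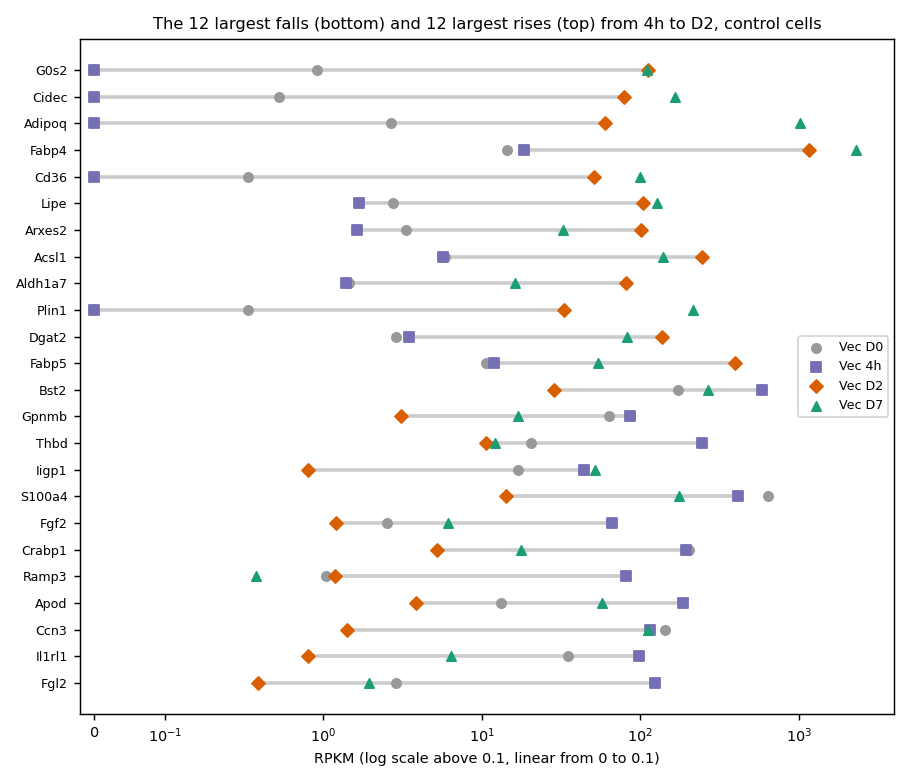
RPKM in Vec D0, 4h, D2 and D7, 1 library per point, for the 12 genes with the most negative and the 12 with the most positive difference from 4h to D2. Differences run from -4.31 to -6.50 and from 4.94 to 6.82.

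The same interval in the receptor-deleted line gave the closest comparison, and it shares no library with that of the control line. In Cre 722 of 12201 genes (5.92%) were higher at D2 than at 4h and 888 (7.28%) were lower, 13.2% in all, with a median difference of 0.04. Of 11827 genes compared in both lines, 514 were higher in both, 43.8% of the 1173 higher in Vec and 76.1% of the 675 higher in Cre. Lower in both were 683, 59.9% of the 1141 lower in Vec and 81.0% of the 843 lower in Cre. Cre 4h had 7.7 M reads, the fewest of the RNA libraries. The lines' responses differed by at least 1 in 544 genes (4.6%), 185 (1.56%) with the more positive difference in Vec and 359 (3.04%) with the more negative one. With 1 library per line and time these differences were not tested.

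The adipocyte list was higher at D2 in Cre as well, with 24 of 30 higher and a median of 3.30 against 3.89 in Vec. Cebpa was at 11.5 in Cre 4h and 205 in Cre D2, close to Vec, and Pparg at 10.6 in Cre 4h and 33.7 in Cre D2. Adipoq was at 0 reads in Cre 4h and 144 in Cre D2, above Vec D2. Interferon-stimulated genes were lower in 19 of 22 members in Cre, with a median of -2.34 against -3.10. Bst2 was at 650.0 in Cre 4h and 69.6 in Cre D2. Contractile genes were lower in 14 members in Cre and 15 in Vec. The summed RPKM of the interferon list in Cre was 949.6 before induction, 2005 at 4 hours, 299 at D2 and 1371 on day 7, lowest at D2 as in Vec.

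Counts were further apart for other lists. Respiratory chain genes were higher in 3 members in Cre against 15 in Vec, with medians of 0.54 and 0.98, on the deposited scale; over all genes 5.92% were higher in Cre and 10.2% in Vec, with medians of 0.04 and 0.19, and the Vec count was 8 with the median of ratios. Collagens and matrix proteins were lower in 9 against 16, with medians of -0.71 and -1.63. Dcn, the proteoglycan decorin, was at 109 in Cre 4h and 97.8 in Cre D2, a difference of -0.16, against 153 and 19.5 in Vec, a difference of -2.92. Members of the unfolded protein and amino acid stress list were higher in 2 members in Cre against 8 in Vec. Oxidation and TCA genes were higher in 14 against 23.

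Among single genes, the 6 with the most negative response in Vec relative to Cre were Rasd1, Prokr1, Sfrp4, Pfkfb3, Tmem119 and Ccn3. Rasd1, a small GTPase induced by dexamethasone, was at 15.8 in Vec 4h and 1.14 in Vec D2 and at 0.404 in Cre 4h and 4.76 in Cre D2, a difference of -2.97 in Vec and 2.04 in Cre. Prokr1, a prokineticin receptor, was at 8.45 in Vec 4h and 1.25 in Vec D2 and at 0.608 in Cre 4h and 4.95 in Cre D2. In both genes Vec lay above Cre at 4 hours and below it at D2. Pfkfb3, a regulator of glycolysis, was level in Vec at 11.7 and 12.6, turning negative with both other scalings, and went from 1.90 to 25.9 in Cre. Tmem119 was at 234 in Vec 4h and 14.5 in Vec D2 and at 22.2 in Cre 4h and 11.9 in Cre D2. Sfrp4 was at 23.7 in Cre 4h and 15.2 in Cre D2 and Ccn3 at 120.2 in Cre 4h and 18.6 in Cre D2, less reduced than in Vec.

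The 6 with the most positive response in Vec relative to Cre were Arhgap36, Tnfrsf11b, Hsd11b2, Retnla, Map7d2 and Orm3. Arhgap36, a regulator of hedgehog signals, was at 1.42 in Vec 4h and 16.6 in Vec D2 and at 2.35 in Cre 4h and 1.501 in Cre D2. Hsd11b2, the enzyme that inactivates glucocorticoids, was at 0 reads in Vec 4h and 7.01 in Vec D2, at least 52.96-fold higher, and at 0.140 in Cre 4h and 0.612 in Cre D2. Map7d2, a microtubule-binding protein, was at 0.177 in Vec D0, 0.571 in Vec 4h, 26.4 in Vec D2 and 0.342 in Vec D7, so it was seen mainly at D2, and at 0.0673 in Cre 4h and 2.79 in Cre D2. Retnla and Orm3 went from 0.546 to 12.5 and from 0.106 to 4.30 in Vec, with 11 and 2 reads in Cre D2. Tnfrsf11b, the decoy receptor osteoprotegerin, was at 1.30 in Vec 4h and 0.0123 in Vec D2 and at 20.8 in Cre 4h and 0.254 in Cre D2: it was lower at D2 in both, from a higher 4-hour level in Cre.

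**Figure D5:**
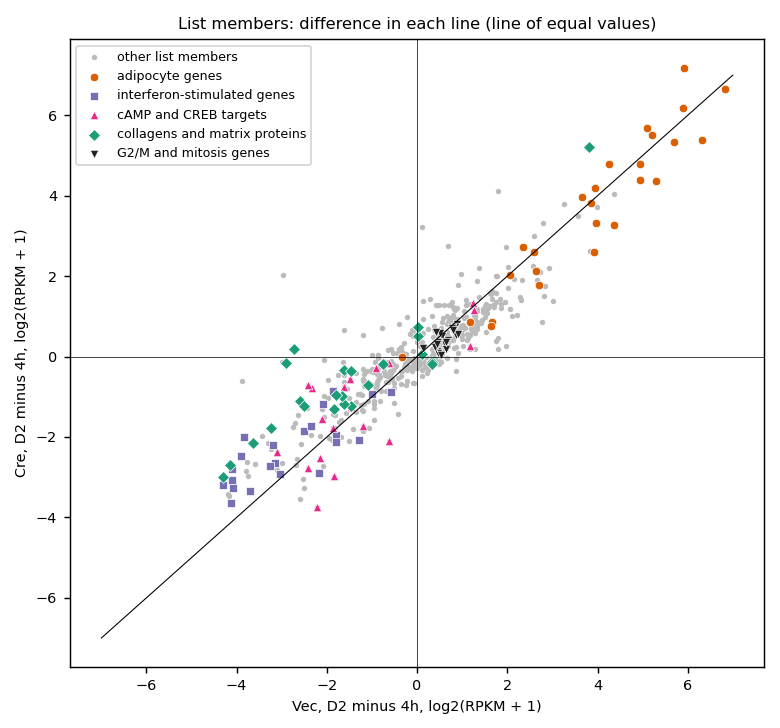
Difference in log2(RPKM + 1), D2 minus 4h, in Vec (horizontal axis) against Cre (vertical axis) for the members of the gene lists, 1 library per line and time; the diagonal marks equal differences. Adipocyte genes lie to the upper right, with list medians of 3.89 in Vec and 3.30 in Cre, and interferon-stimulated genes to the lower left, with -3.10 and -2.34.

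Markers of the labelled cell type were present in part. Of 7 brown preadipocyte lineage markers 5 passed the filter, among them Ebf2 at 18.2 and 19.2, Pdgfra at 29.9 and 20.0 and Lhx8 at 6.27 and 4.70 in Vec 4h and Vec D2. Zic1, a factor of the brown lineage, was lower, at 8.77 in Vec D0, 10.7 in Vec 4h, 3.36 in Vec D2 and 3.40 in Vec D7. Prdm16 was at 0.275 and 0.636 and Epsti1 at 0.131 and 0. Pparg, also among the late regulators above, was the 1 higher member, with a difference of 1.62. The list sum, Pparg included, was 79.1 at 4h and 91.8 at D2, while the list median was -0.18.

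Endothelial and leukocyte markers were close to absent, and some skeletal muscle markers were present. Of 7 endothelial markers 0 passed, with summed RPKM of 1.27 at 4h and 0.300 at D2, and Cdh5, Tie1 and Emcn were at 0 at D2. Of 7 macrophage and leukocyte markers 1, Cd14, passed; the sums were 2.57 and 0.569, and Ptprc, Adgre1 and Tyrobp were at 0 at both times. Skeletal muscle markers passed in 5 of 12, with sums of 17.6 and 11.1, 1 member (Acta1, -1.26) lower, Myod1 at 0.308 and 0.355 and Myf5 at 0. The part of these cells in the results above was not tested.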

How the data were processed

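Each RNA library came from Trizol-extracted total RNA from which poly(A) RNA was taken with oligo beads, per the labels' protocols. The authors deposited, per the file headers, a read count and an RPKM for each transcript accession; RPKM scales that count by transcript length and by the library total, which was recovered from the 2 values. The submitters' processing notes name CASAVA 1.8.2, SICER and the mm9 build. Not given in the sources used here were the aligner, the counter, strand use and the handling of reads with several matches. Of 29082 accessions 28436 (97.8%) matched a symbol and 646 did not, and each gene was represented by its accession of highest read count, summed over the 8 RNA libraries. Genes reaching an RPKM of 1 in Vec 4h or Vec D2 were compared on log2(RPKM + 1), with a pseudocount of 1 and a size rule of 1, a 2-fold change. A gene's reads in the 2 libraries gave a 95% exact Clopper-Pearson interval of the fold, and 0 reads were set to a floor of 3; PCR reads without molecular identifiers are not independent molecules.

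Members and gene lists were chosen with earlier results of these data known. Named genes are Nr3c1, the members of 31 gene lists (609 of 614 listed symbols were found, and a gene in several lists counts in each), the 12 largest differences each way and the 6 largest differences between the lines each way, leaving out uncharacterised and non-coding symbols. Other settings were TMM factors (edgeR 4.0.16), the median of ratios, other pseudocounts and filters, and sums over accessions. The scripts were tested on simulated data. Promoters are from RefSeq, build GRCm38.p6, joined by symbol. Python 3.11.15, numpy 2.4.6, pandas 2.3.3, scipy 1.17.1, matplotlib 3.10.9 and R 4.3.3 were used.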

Additional observations from a re-analysis of the deposited data

Results flagged for a closer look

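In 4 named genes the libraries of the lines went in opposite directions from 4h to D2, each past the size rule; with 1 library per line and time the difference was not tested. Rasd1 had a difference of -2.97 in Vec and 2.04 in Cre, on 312 and 53 reads in Vec 4h and Vec D2 and on 5 and 203 reads in Cre 4h and Cre D2. Prokr1 had -2.07 in Vec and 1.89 in Cre. Gas7, a growth-arrest protein of the cytoskeleton, had -1.30 and 1.18, with an RPKM of 17.1 in Vec 4h, 6.37 in Vec D2, 6.83 in Cre 4h and 16.7 in Cre D2. Cpxm1, a secreted carboxypeptidase-like protein, had -1.28 and 1.06, with 3.10 in Vec 4h, 0.687 in Vec D2, 2.09 in Cre 4h and 5.43 in Cre D2. Gas7 and Cpxm1 are in no list and were named after their values were seen. Over all genes compared in both lines, uncharacterised ones included, 8 were lower in Vec and higher in Cre and 5 the reverse.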

How the results depend on the processing

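With a pseudocount of 5 in place of 1, which shrinks low genes, 506 genes were higher and 654 lower at D2, against 1223 and 1173. The other settings stayed within 1.5 times of those counts: 1712 and 1484 with a pseudocount of 0.1, 991 and 905 at an RPKM of at least 5, 1289 and 1231 with accessions summed, 1042 and 1203 where the counting interval lay wholly past 2-fold, and the TMM and median-of-ratios counts given above. Without the RPKM filter the counts are the same by construction, since a gene under 1 in both libraries cannot reach the size rule. Of 3045 values of named genes under other settings, 0 of those past the size rule reversed and 916 moved past their counting interval. Only the sum over accessions could have reversed such a gene. A pseudocount cannot change a sign, and the scalings shift a value by at most 0.213. Of 434 list counts, those without the RPKM filter included, 385 stayed within 1.5 times and 49 did not. No paired analysis was possible because each group has 1 RNA library and its labels carry no replicate number, and for the same reason no library could be left out. Depth limits low genes most at 4 hours, where 3 reads already equal an RPKM of 0.097.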

Other observations

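Several gene families were looked up after the values had been seen, so their counts are descriptions. Families were picked by symbol, so a family can hold genes that only share the start of a name. Peroxins, which build peroxisomes, were higher at D2 in 8 of 17 members found (16 past the filter) and lower in 0. Pex11a, which multiplies peroxisomes, was at 1.21 in Vec 4h and 12.9 in Vec D2, and Pex16 at 5.30 and 21.2. Mitochondrial ribosomal proteins were higher in 12 of 78 (76 past the filter) and lower in 0. Mitochondrial carriers were higher in 7 of 47 (37 past the filter) and lower in 3. Both shares called higher were above the 10.2% of all genes compared, a share that counts only genes past the filter. The excess was not tested. The medians of the members past the filter were 0.70 and 0.58, above the 0.19 of all genes compared. Of 85 cytosolic ribosomal proteins (83 past the filter) 0 were higher and 0 lower. Some of them are listed at low levels, such as Rpl19 at 1.08 in Vec 4h and 2.17 in Vec D2. The treatment of multiply matching reads is unknown, which limits that count. Among the carriers, Slc25a10, the dicarboxylate carrier, went from 4.73 to 24.0.

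The counts of the families that follow stand beside 9.74% lower and 10.2% higher of all genes compared. Guanylate-binding and immunity-related GTPases, which interferon induces, were lower in 7 of 15 members (8 past the filter) and higher in 0. Among them Gbp3 went from 42.8 to 2.49 and was at 69.2 at D7. Genes picked by symbol for MHC class I and antigen processing were lower in 11 of 33 (17 past the filter) and higher in 1. That 1, H2-Ke6 (1.43), was taken in by its symbol and is not a class I gene. B2m went from 1092 to 255 and reached 1456 at D7. Genes with symbols that begin like those of integrins were lower in 10 of 30 (15 past the filter) and higher in 2. The collagen receptor gene Itga11 went from 6.18 to 0.105. The laminin receptor genes Itga6 and Itga7 were higher, from 2.91 to 15.8 and from 1.54 to 9.80. Genes with symbols that begin like those of tubulins were lower in 4 of 23 (16 past the filter) and higher in 0. The lower ones were Tuba1a (-3.08), Tubb2a (-2.95), Tubb2b (-2.67) and Tubb3 (-2.56). Of 13 S100 genes (7 past the filter) 4 were lower and 1, S100a1 (1.22), was higher, with S100a6 from 824 to 94.8.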
